A study of Mus musculus with 4 samples.

Results

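The antigen receptor pathway of regulatory T cells was followed through 57 genes that encode its receptor chains, kinases, adaptors, transcription factors and inhibitors. The members were given as a list of gene symbols by their role in the pathway. The rule has no threshold on a measured value, but the list was drawn up with earlier results of these data known. Of the 57, 53 had a probe that the platform annotation assigns to that gene alone, out of 22180 genes measured in this way. Cd247, Lck, Nfkb1 and Itpr1 had none and were not analysed here. Of the 53 measured members, 52 had a mean over the 4 arrays above 5.91 on the log2 scale, the median of all genes. Genes above that limit are called expressed genes, and there were 11090 of them. The member below it was Spry2, with levels of 6.05 in control and 5.95 in knockout TFR cells and of 5.61 in control and 5.73 in knockout non-TFR cells.

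The cells were Foxp3-expressing CD4 T cells of mice, collected 7 days after immunization with NP-OVA, a hapten coupled to ovalbumin, in CFA, an oil adjuvant with killed mycobacteria. TFR cells (follicular regulatory T cells) were sorted as PD1+, CXCR5+, YFP+ and CD4+, and other regulatory T cells (non-TFR) as CXCR5-, YFP+ and CD4+. All mice carried FoxP3YFP-Cre, in which Foxp3 drives both the YFP reporter and Cre. Control mice (labelled WT) carried this allele only, and knockout mice (labelled KO) were Prdm1fl/flFoxP3YFP-Cre, so that Cre targets Prdm1, the gene of the repressor Blimp-1, in Foxp3-expressing cells. Each of the 4 groups was 1 Affymetrix Mouse Gene 2.0 ST array. The sources used here do not give the age or sex of the mice, or how many were pooled per array. No value below has a replicate or a test, and with 1 array per group the precision cannot be estimated.

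The T cell receptor has no kinase activity of its own. Its CD3 and zeta chains carry tyrosine motifs that the kinase Lck phosphorylates, after which ZAP-70 docks and phosphorylates the adaptors LAT and SLP-76. From that scaffold phospholipase C gamma opens the calcium and NFAT branch, protein kinase C theta with CARMA1, BCL10 and MALT1 opens the NF-kB branch, and RasGRP1 and SOS open the Ras and ERK branch. Phosphatases, ubiquitin ligases, diacylglycerol kinases and inhibitors that the pathway itself induces limit the signal. Regulatory T cells need antigen receptor signals for their suppressive activity.

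The targeted gene, Prdm1, had levels of 8.21 in control and 7.32 in knockout TFR cells and of 7.80 in control and 7.59 in knockout non-TFR cells. Whether the probe covers the floxed exons was not examined, so these levels are not read as a measure of the deletion. The reason for their sizes was not tested. Cd4, a member that also served as a gate, had levels of 11.23 in control and 11.33 in knockout TFR cells and of 11.02 in control and 11.29 in knockout non-TFR cells. It was left out of the counts and medians below, which therefore cover 52 members. Pdcd1, the gene of the gate protein PD1, was at 9.86 in control and 10.68 in knockout TFR cells. In non-TFR cells it was at 7.44 in control and 8.96 in knockout mice. Cxcr5, also a gate gene, was at 9.52, 10.39, 8.06 and 8.90 in the same order. Both gate genes were thus higher in the knockout array of each population. All 6 markers of regulatory T cells (Foxp3, Il2ra, Ikzf2, Ctla4, Lrrc32 and Nrp1) were above the expression limit on every array. Their summed linear level was 17560 in control and 13218 in knockout TFR cells and 17479 in control and 18448 in knockout non-TFR cells. Among markers of other cells, all 4 dendritic and 7 of 8 myeloid markers were below the limit on all arrays. Of the 7 measured B cell markers, 3 were below it on all arrays, and the summed level of the 7 ran from 499 in control non-TFR to 1124 in knockout TFR cells. Among them Cd22 was at 8.27 in control and 9.27 in knockout TFR cells and at 5.99 in control and 7.04 in knockout non-TFR cells. The 6 CD8 and NK markers summed to between 673 and 902, and 3 of them were below the limit on all arrays. The brightest of these 6, Cd8b1, ranged from 8.73 to 9.42. The 4 plasma cell markers summed to between 966 and 1084, and 2 of them were below the limit on all arrays. The brightest of these 4, Xbp1, ranged from 9.76 to 9.91. The part of other cells in the results was not tested. Fewer cells that express a gene and less RNA of it per cell cannot be told apart in these sorted bulk samples.

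Most of the pathway was level across the 4 arrays. The highest and lowest level of a member differed by a median of 0.34 on the log2 scale, beside 0.41 for expressed genes. In 21 of 52 members (40.4%) the 4 levels lay within 0.3, as in 31.1% of expressed genes. A difference of at least 1.5-fold in any of the 4 comparisons was found for 11 members (21.2%), beside 23.4% of expressed genes. The share of members that differed was near the background.

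The measured CD3 chains of the receptor were among the level parts, and the zeta chain gene Cd247 had no probe. Cd3e, the epsilon chain, had levels of 12.93 in control and 13.04 in knockout TFR cells and of 12.96 in control and 13.03 in knockout non-TFR cells. Cd3d, the delta chain, was at 12.80, 12.92, 12.74 and 12.74 in the same order, and Cd3g, the gamma chain, at 12.97, 12.91, 12.87 and 12.87. None of the CD3 chains varied by more than 0.18 over the 4 arrays. They lay close to the top of the array's scale, which ended at 13.79, where differences can be compressed. Cd5, an inhibitory receptor whose level is known to follow receptor signal strength, ranged from 12.48 to 12.64. Its knockout level differed from control by -0.16 in TFR and -0.12 in non-TFR cells, well under the 1.5-fold limit. Whether Cd5 marks a difference in receptor signal here was not tested. Ptprc, the CD45 phosphatase that activates Lck, ranged from 12.51 to 12.71, and Cd6, a coreceptor of mixed role, from 11.70 to 11.82. Cd2, the adhesion receptor for CD48 in mice, was slightly lower in TFR cells, by 0.26 in control and 0.25 in knockout mice.

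**Figure D1:**
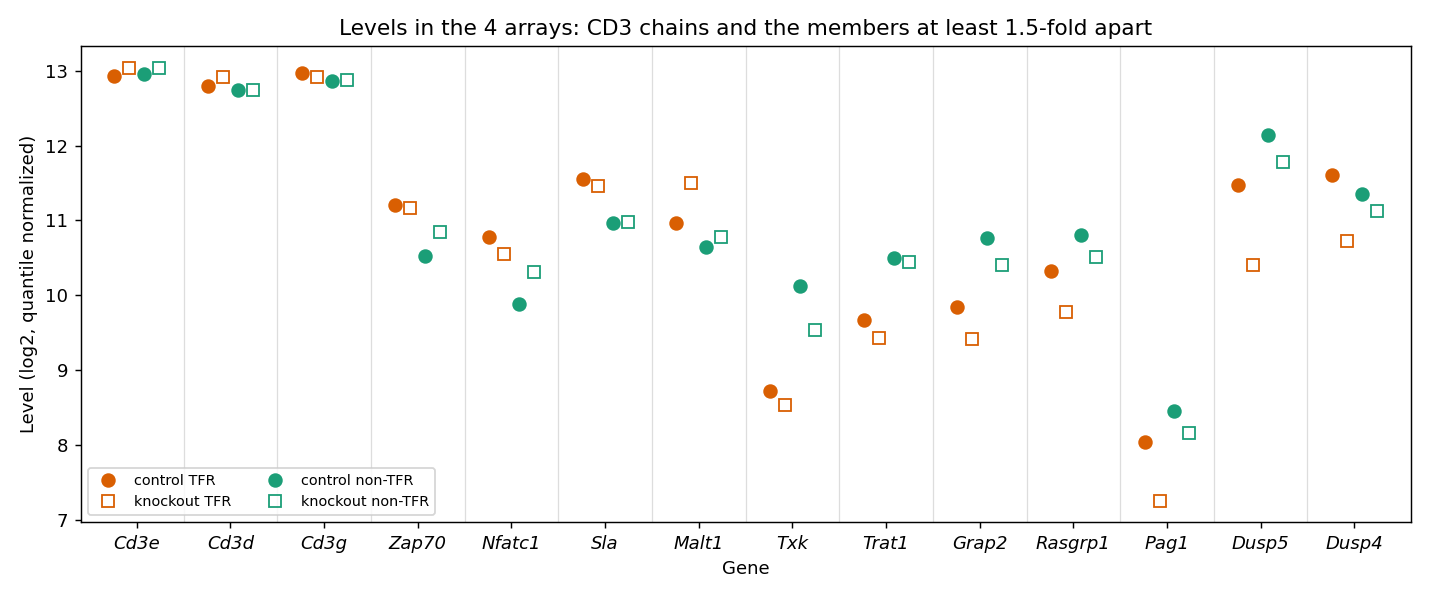
Level on the log2 scale after quantile normalization (y axis) of the 3 measured CD3 chains and of the 11 members at least 1.5-fold apart in any comparison (x axis), 1 point per array. Filled circles are control and open squares knockout, orange is TFR and green non-TFR. The CD3 chains stay within 0.18, whereas Txk, Trat1, Grap2 and Dusp5 are at least 1.5-fold lower in TFR cells of both genotypes.

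The comparison of TFR with non-TFR cells asked which pathway components differ between the follicular and the other regulatory cells, and it was made in each genotype on separate arrays. In control mice 3 members were at least 1.5-fold higher in TFR cells, where 10.3% of expressed genes were, and 4 were at least 1.5-fold lower, where 5.76% were. In knockout mice 1 member was higher, beside 8.54% of expressed genes, and 6 were lower, beside 6.2%. In the values as deposited the split was 6 higher and 4 lower in control and 4 higher and 6 lower in knockout mice. The median of expressed genes was then 0.13 and 0.14, against 0.021 and 0.014 after normalization. With centring on the 75th percentile 2 were higher and 5 lower in control mice. At a 2-fold limit Txk was lower in control mice, where 1.36% of expressed genes were, and Trat1 and Dusp5 in knockout mice, where 1.37% were. The median difference of the 52 members was -0.0061 in control and -0.0081 in knockout mice.

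In control mice the 3 lowest differences between TFR and non-TFR cells were those of Txk, Grap2 and Trat1, positive components that act next to the receptor. Txk, also called Rlk, is a Tec family kinase of resting T cells that phosphorylates phospholipase C gamma. Its level was 8.72 in control and 8.53 in knockout TFR cells and 10.12 in control and 9.53 in knockout non-TFR cells. The TFR value differed from the non-TFR value by -1.41 (2.66-fold) in control and -0.99 (1.99-fold) in knockout mice. Trat1, which encodes the adaptor TRIM associated with the receptor complex, was at 9.67, 9.43, 10.50 and 10.45 in the same order. It was 1.78-fold lower in control and 2.03-fold lower in knockout TFR cells. Grap2, which encodes GADS, the adaptor that links SLP-76 to LAT, was at 9.85, 9.41, 10.76 and 10.41. It was 1.88-fold lower in control TFR and 1.999-fold lower in knockout TFR cells.

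In knockout mice the lowest difference was that of a negative regulator, Dusp5, a nuclear phosphatase that binds and inactivates ERK. Its level was 11.47 in control and 10.41 in knockout TFR cells and 12.15 in control and 11.78 in knockout non-TFR cells. It was 1.60-fold lower in control TFR and 2.59-fold lower in knockout TFR cells. Txk, Trat1, Grap2 and Dusp5 were the 4 members at least 1.5-fold apart in the same direction in both genotypes, which is 57.1% of the 7 in control and 57.1% of the 7 in knockout mice. For expressed genes these shares were 56.0% and 61.2%. The difference had the same sign in both genotypes in 39 of 52 members (75%) and in 76.4% of expressed genes.

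The 250 bases before the transcription start are shown for these 4 genes because these genes were lower in TFR cells of both genotypes. They are from RefSeq on GRCm38.p6, at chr19:53528895-53529144 on the plus strand for Dusp5, chr15:80623233-80623482 on the plus strand for Grap2, chr16:48772063-48772312 on the minus strand for Trat1 and chr5:72752778-72753027 on the minus strand for the first of 2 listed starts of Txk. Capitals mark matches on either strand to the serum response element, the NF-kB site, the CRE (TGACGTCA), the E-box (CANNTG) and a Blimp-1 core (AGNGAAAG).
Dusp5: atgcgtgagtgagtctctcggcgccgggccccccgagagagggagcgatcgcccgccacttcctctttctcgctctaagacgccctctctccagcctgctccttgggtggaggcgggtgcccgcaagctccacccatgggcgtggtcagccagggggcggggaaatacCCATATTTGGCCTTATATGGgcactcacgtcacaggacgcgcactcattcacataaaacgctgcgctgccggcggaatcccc
Grap2: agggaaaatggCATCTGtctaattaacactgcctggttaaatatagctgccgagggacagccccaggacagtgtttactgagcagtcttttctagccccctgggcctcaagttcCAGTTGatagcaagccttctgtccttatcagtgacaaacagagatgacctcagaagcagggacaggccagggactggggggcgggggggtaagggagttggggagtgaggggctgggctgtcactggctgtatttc
Trat1: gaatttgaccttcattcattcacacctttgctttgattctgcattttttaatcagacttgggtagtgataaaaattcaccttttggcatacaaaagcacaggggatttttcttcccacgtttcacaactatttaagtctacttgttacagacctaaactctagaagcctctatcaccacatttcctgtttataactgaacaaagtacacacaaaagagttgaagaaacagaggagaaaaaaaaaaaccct
Txk: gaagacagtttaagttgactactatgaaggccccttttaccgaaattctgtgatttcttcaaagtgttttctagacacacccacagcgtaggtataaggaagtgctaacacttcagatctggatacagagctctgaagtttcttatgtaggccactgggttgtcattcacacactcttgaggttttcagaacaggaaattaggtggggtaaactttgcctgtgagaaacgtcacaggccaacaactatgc
The Dusp5 window held a pair of adjacent serum response element matches, which begin 82 and 72 bases before the start. The serum response factor, which binds this element with ternary complex factors that ERK phosphorylates, is a known mediator of immediate early transcription. Such a match was present in 1.47% of the 32851 listed promoters of this length. Among the 46 members with a listed promoter it was present for Dusp5 alone, or in 1.52% of their 66 promoters. That share is near the one of all promoters. Dusp4, Pag1, Sla, Malt1 and Nfatc1 were among the members with no listed promoter, so no motif was looked for in them. The Grap2 window held E-box matches, as did 66.2% of all promoters, and the Trat1 and Txk windows held no match to these letters. A Blimp-1 core was found for 6 of the 46 members (Ptpn22, Ubash3b, Grb2, Nfkb2, Dgka and Spry2), in 6 of their 66 listed promoters, or 9.09%, beside 7.3% of all promoters. Matches to different motifs did not overlap in the windows shown. A match is a description of the letters and not of binding.

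Other components early in the pathway were lower in TFR cells by less. Rasgrp1, the exchange factor that activates Ras in response to diacylglycerol, was at 10.33 in control and 9.78 in knockout TFR cells and at 10.80 in control and 10.51 in knockout non-TFR cells. In TFR cells it was 1.67-fold lower in the knockout pair and 1.39-fold lower in the control pair. Pag1, the membrane anchor of the inhibitory kinase CSK, was at 8.03, 7.25, 8.45 and 8.16 in the same order and was 1.87-fold lower in knockout and 1.34-fold lower in control TFR cells. Prkcq, protein kinase C theta, lay just short of the limit in control mice at -0.56 and was at -0.36 in knockout mice; with centring on the 75th percentile its control difference was -0.59, past it. Lat, the scaffold adaptor, was at 12.38 in control and 12.40 in knockout TFR cells and at 12.81 in control and 12.67 in knockout non-TFR cells, a smaller difference in the same direction. Of the 10 adaptors and exchange factors, 9 were lower in control TFR cells, with a median of -0.26, and 6 were lower in knockout TFR cells, with a median of -0.10. Of expressed genes, 52.4% and 51.6% were above 0 in these comparisons. As deposited 6 and 4 of the 10 were lower, and the knockout median was 0.037. In those values 64.5% and 65.5% of expressed genes were above 0.

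Several proximal components were higher in TFR cells instead. Zap70, the kinase that docks on the phosphorylated receptor, had levels of 11.21 in control and 11.17 in knockout TFR cells and of 10.52 in control and 10.84 in knockout non-TFR cells. The TFR value was above the non-TFR value by 1.61-fold in control and 1.25-fold in knockout mice. Fyn, a Src family kinase, was 0.37 higher in control and 0.50 higher in knockout TFR cells, short of the limit in both. Lcp2, which encodes SLP-76, was 0.32 and 0.17 higher. Over the 4 arrays Plcg1, phospholipase C gamma 1, ranged from 9.68 to 9.89, and Grb2, the adaptor that brings SOS to the membrane, from 10.78 to 10.94. Sos1, the Ras exchange factor, ranged from 8.31 to 8.65, and the cytoskeletal adaptor Nck1 from 8.23 to 8.50. Both were lower in TFR cells of control and knockout mice, Sos1 by 0.34 and 0.087 and Nck1 by 0.18 and 0.22.

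Nfatc1 had the highest difference of any member in control mice. It encodes the transcription factor NFAT2, which calcineurin releases to the nucleus and which also activates its own gene. Its level was 10.78 in control and 10.56 in knockout TFR cells and 9.88 in control and 10.31 in knockout non-TFR cells. The TFR value was 1.86-fold higher in control and 1.19-fold higher in knockout mice. Nfatc2, which encodes NFAT1, was 0.56 and 0.46 higher in TFR cells, under the limit in both genotypes, and Nfatc3 differed by -0.14 and -0.021. Of the sensors and channels of calcium entry, Stim1 differed by 0.061 and 0.34 and Orai1 by 0.045 and -0.23.

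In the NF-kB branch the member past the limit was Malt1, the paracaspase of the CARMA1 complex. Its level was 10.96 in control and 11.50 in knockout TFR cells and 10.65 in control and 10.77 in knockout non-TFR cells. In TFR cells it was 1.65-fold higher in the knockout pair and 1.25-fold higher in the control pair. Its partner Bcl10 differed by -0.20 and -0.15. Nfkb2 was 0.21 and 0.32 higher, Rel differed by 0.18 and -0.10, and Rela was 0.31 lower in knockout TFR cells.

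Among negative regulators, Sla, the adaptor SLAP that promotes receptor degradation, was the one past the limit on the higher side. It was at 11.56 in control and 11.47 in knockout TFR cells and at 10.97 in control and 10.99 in knockout non-TFR cells. The control difference of 0.59 was just past the limit and was 0.57 with centring on the 75th percentile and 0.58 with cyclic loess. Ptpn22, a phosphatase of Lck and ZAP-70, was 0.53 and 0.56 higher in TFR cells, under the limit in both genotypes. Of the related proteins STS-2 and STS-1, which act on ZAP-70, Ubash3a was 0.36 and 0.12 higher and Ubash3b 0.56 and 0.20 higher. Dgka, a diacylglycerol kinase that opposes RasGRP1, was 0.36 and 0.28 lower, and its relative Dgkz differed by 0.11 and -0.043. Sla2, a relative of Sla, ranged from 9.68 to 9.93 over the 4 arrays, and Ptpn6, which encodes the phosphatase SHP-1, from 10.68 to 10.92.

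The 29 positive components had a median of -0.026 in control and -0.021 in knockout mice, with 12 and 14 higher in TFR cells. The 21 negative regulators had a median of 0.084 and -0.043, with 12 and 10 higher. Of expressed genes, 52.4% and 51.6% were above 0. As deposited the control medians were 0.044 for positive components, of which 15 were higher, and 0.19 for negative regulators, of which 16 were higher. In those values 64.5% of expressed genes were above 0. Whether the lists differed was not tested. Cell division genes moved with the population: all 14 measured were higher in TFR cells of both genotypes. Their summed linear level was 16949 in control and 17301 in knockout TFR cells, against 6271 in control and 7754 in knockout non-TFR cells. Their part in the differences of pathway members was not tested.

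**Figure D2:**
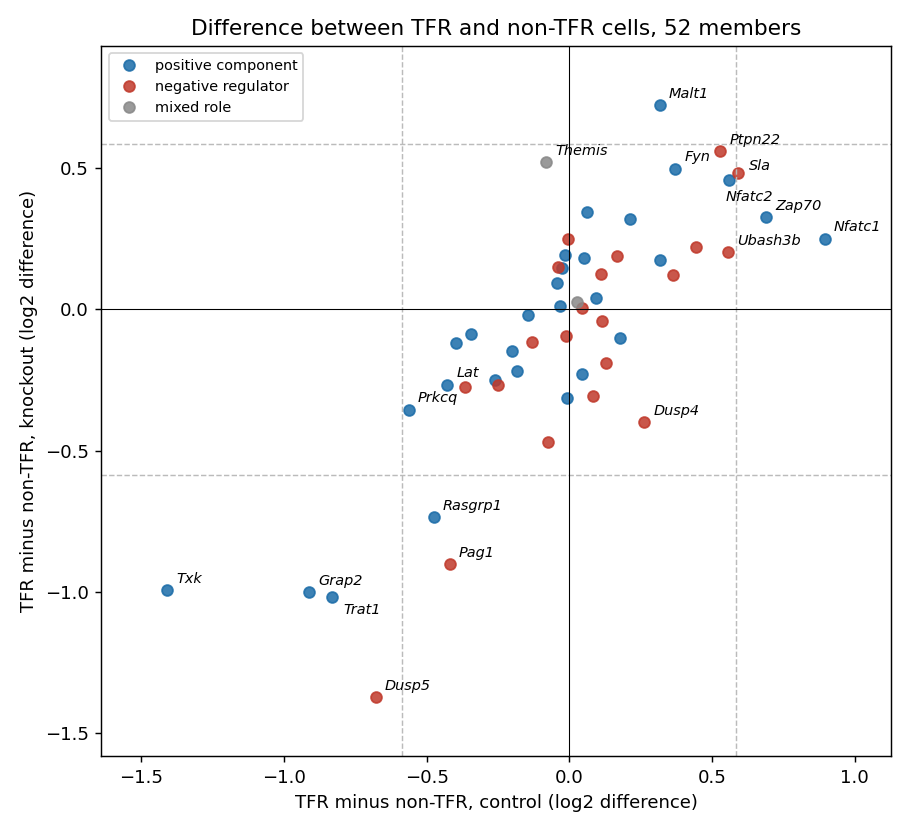
Difference between TFR and non-TFR cells on the log2 scale in control (x axis) and knockout mice (y axis) for the 52 measured members without Cd4, 1 point per gene; dashed lines mark 1.5-fold. The axes share no array, and Txk, Trat1, Grap2 and Dusp5 lie past the lower line on both.

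The comparison of knockout with control asked which components differ with the Prdm1 genotype within each population. In TFR cells no member was 1.5-fold higher, where 2.16% of expressed genes were, and 3 were 1.5-fold lower, beside 1.56%. All 3 were negative regulators, namely Dusp5, Dusp4 and Pag1. In non-TFR cells no member was 1.5-fold higher, beside 3.69% of expressed genes, and 1 was 1.5-fold lower, beside 1.09%. That member was Txk. At a 2-fold limit Dusp5 alone was lower in TFR cells, beside 0.234% of expressed genes, and no member in non-TFR cells, beside 0.126%.

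The lowest differences between knockout and control TFR cells were those of Dusp5 and Dusp4, genes of ERK phosphatases. Dusp5 was at 11.47 in control and 10.41 in knockout TFR cells, 2.09-fold lower, and was 1.29-fold lower in knockout non-TFR cells. Dusp4, a nuclear phosphatase of ERK, JNK and p38, had levels of 11.61 in control and 10.72 in knockout TFR cells and of 11.35 in control and 11.12 in knockout non-TFR cells. It was 1.85-fold lower in knockout than in control TFR cells and 1.17-fold lower in knockout non-TFR cells. The knockout TFR array had the lowest level of both genes. Dusp6, a cytoplasmic ERK phosphatase, was at 11.72, 11.33, 11.59 and 11.52 in the same order, a TFR difference of -0.38, or of -0.25 when its 2 probes were averaged.

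All 7 feedback inhibitors had a difference below 0 in knockout TFR cells, with a median of -0.26, where 53.8% of expressed genes were above 0. The 7 include Spry2, at -0.11, whose mean was under the expression limit. This count was the same under the 3 other scalings, which use the same arrays. The sizes were uneven, since Rcan1, an inhibitor of calcineurin, and Nfkbia, which encodes the NF-kB inhibitor IkB alpha, differed by -0.012 and -0.051. Spry1, a Sprouty inhibitor of Ras signalling, was at 9.15 in control and 8.89 in knockout TFR cells. In non-TFR cells 5 of the 7 were lower, with a median of -0.033, where 55.7% of expressed genes were above 0. Of the 13 proximal negative regulators, which act on the receptor and its kinases or on diacylglycerol, 9 were lower in knockout TFR cells, with a median of -0.099. Pag1 was at 8.03 in control and 7.25 in knockout TFR cells, 1.71-fold lower, and its non-TFR difference was -0.29. Ptpn2, a phosphatase of Lck and of JAK kinases, was at 8.07 and 7.64 in TFR and at 8.14 and 8.11 in non-TFR cells, with a TFR difference of -0.43. Csk itself differed by 0.13 in TFR and -0.056 in non-TFR cells, and Cbl and Cblb, the ubiquitin ligases, by -0.11 and -0.12 in TFR cells.

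Taken by side, 17 of 21 negative regulators were lower in knockout TFR cells, with a median of -0.11, and 16 of 29 positive components were higher, with a median of 0.033. The median of expressed genes was 0.020, and 53.8% of them were above 0. Over the other scalings 17 or 18 of the negative regulators were lower. In non-TFR cells the medians were -0.031 for negative regulators, of which 13 were lower, and -0.00090 for positive components, of which 15 were lower. There 55.7% of expressed genes were above 0. The difference between the lists was not tested. Summed Treg markers were lower in the knockout TFR array than in the control TFR array (13218 against 17560), with 5 of 6 lower. The B cell sum was higher (1124 against 828), mainly through Cd22, which differed by 1.00. Blk was at 5.28 in control and 6.11 in knockout TFR cells and Pax5 at 5.69 and 6.10. Both were above the expression limit on the knockout TFR array only. There 4 B cell markers were above the limit, against 2 on the control TFR array. Of the 7 B cell markers 3 were higher and 4 lower, with a median of -0.041. The myeloid sum was higher (810 against 475) through Cd68, and 4 of the 8 myeloid markers were lower. The part of these markers in the differences was not tested.

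Positive components with the widest genotype differences in TFR cells lay on both sides of 0 and under the limit. Rasgrp1 was 0.55 lower in knockout TFR and 0.29 lower in knockout non-TFR cells, and Grap2 was 0.44 and 0.35 lower. With centring on the 75th percentile the TFR difference of Rasgrp1 was -0.59, past the limit. Malt1 was 0.53 higher in knockout TFR and 0.13 higher in knockout non-TFR cells, and Fyn was 0.31 and 0.18 higher. Txk was 1.51-fold lower in knockout non-TFR cells (-0.60) and 0.18 lower in knockout TFR cells.

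**Figure D3:**
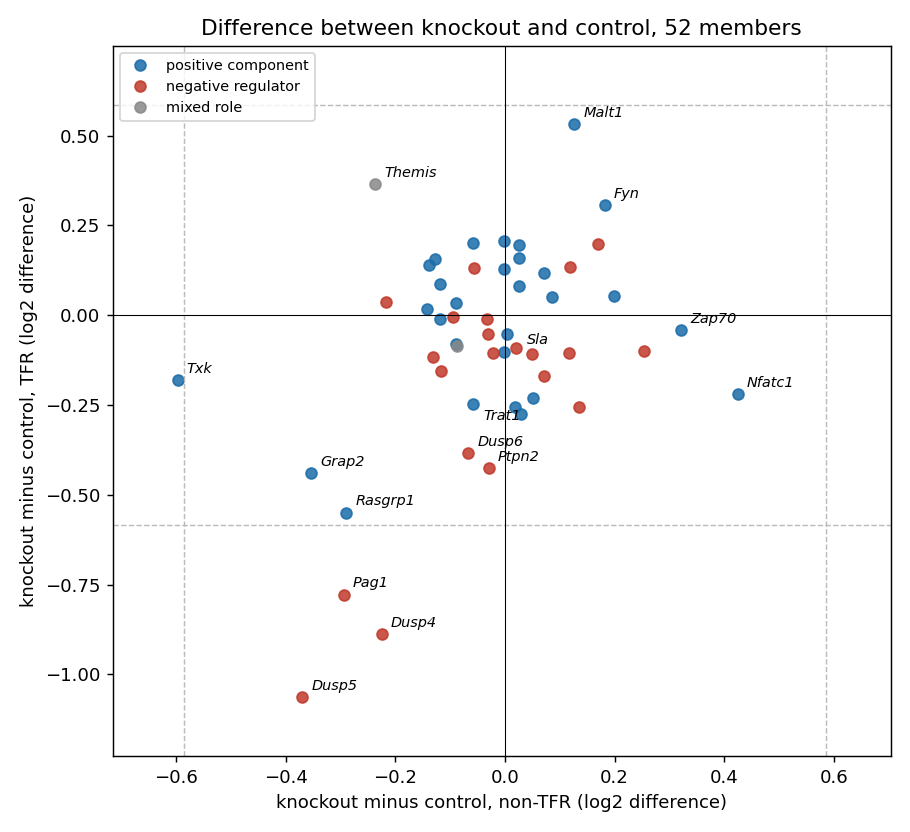
Difference between knockout and control on the log2 scale in non-TFR (x axis) and TFR cells (y axis) for the 52 measured members without Cd4, 1 point per gene; dashed lines mark 1.5-fold. Dusp5, Dusp4 and Pag1, all negative regulators, lie below the lower line for TFR cells, and Txk lies past the line for non-TFR cells.

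The genotype difference itself differed between the populations by at least 1.5-fold for 4 members (7.69%), beside 6.45% of expressed genes. Dusp5 and Dusp4 were lower in the knockout by 0.69 and 0.66 more in TFR than in non-TFR cells. Between populations Dusp4 was thereby 0.26 higher in control TFR and 0.40 lower in knockout TFR cells. Nfatc1 was 0.22 lower in knockout TFR and 0.42 higher in knockout non-TFR cells, a gap of -0.65. Themis, a T cell adaptor that regulates SHP-1, was at 8.18 in control and 8.54 in knockout TFR cells and at 8.26 in control and 8.02 in knockout non-TFR cells. Its genotype differences were 0.36 and -0.24, a gap of 0.60. None of these gaps was tested. In knockout non-TFR cells the cell division genes were also higher in all 14 cases, with a median of 0.82, and in knockout TFR cells 7 of 14 were higher, with a median of 0.023.

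**Figure D4:**
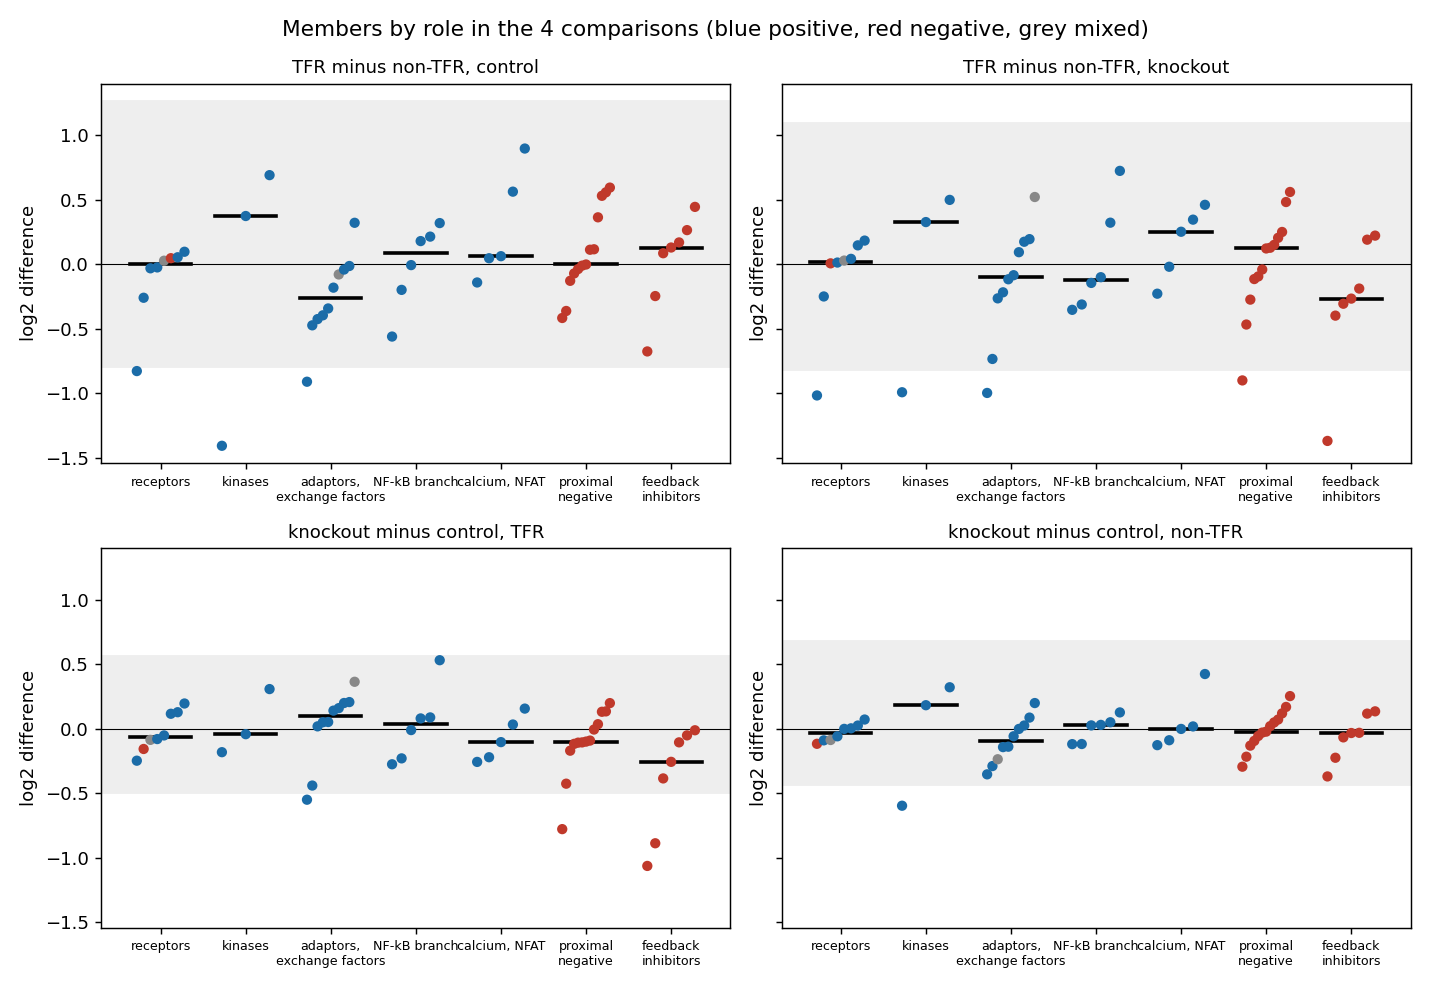
Difference on the log2 scale (y axis) of the 52 measured members without Cd4 by role (x axis) in the 4 comparisons, 1 point per gene; black bars are role medians and the grey band is the middle 95% of expressed genes. The feedback inhibitors are all at or below 0 in knockout TFR cells, and Txk lies below the band in both TFR comparisons and in the non-TFR genotype comparison.

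Of 56 further pathway genes, listed for their known roles, 47 were measured. In control mice 4 of the 47 were at least 1.5-fold higher in TFR cells, beside 10.3% of expressed genes, and 5 at least 1.5-fold lower, beside 5.76%. In knockout mice 1 was higher, beside 8.54%, and 5 were lower, beside 6.2%. The genotype comparison found 1 higher (2.16% of expressed genes) and 1 lower (1.56%) in TFR cells, and none in either direction in non-TFR cells (3.69% and 1.09%). Their medians were -0.045, -0.075, -0.042 and 0.015 in the 4 comparisons.

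The 5 genes lower in control TFR cells were Ppp3ca, Orai2, Itpr3, Nck2 and Sit1. Ppp3ca, the catalytic alpha subunit of calcineurin, was at 8.46 in control and 8.01 in knockout TFR cells and at 9.60 in control and 9.13 in knockout non-TFR cells. It was 2.22-fold lower in control and 2.17-fold lower in knockout TFR cells, and the beta subunit gene Ppp3cb differed by -0.27 and -0.13 on the log2 scale. Orai2, a calcium channel subunit that tunes Orai1, was at 8.17, 8.19, 8.98 and 9.04, which is 1.76-fold and 1.80-fold lower in TFR cells. Itpr3, a calcium release channel of the endoplasmic reticulum, was 1.75-fold and 1.53-fold lower. Its relative Itpr2 differed by -0.20 and -0.039 and the calcium sensor gene Stim2 by -0.12 and -0.27, under the limit. The adaptor Nck2 and the transmembrane adaptor Sit1 were 0.69 and 0.64 lower in control TFR cells.

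Higher in TFR cells were Nf1, the Ras inactivating protein neurofibromin, Lax1, an inhibitory adaptor, Ptpn11, which encodes the phosphatase SHP-2, and Akt1. Nf1 was at 8.24 in control and 8.86 in knockout TFR cells and at 7.57 in control and 8.05 in knockout non-TFR cells. It was 1.58-fold and 1.75-fold higher in TFR cells and 1.55-fold higher in knockout than in control TFR cells. In control mice Lax1 was 0.77, Ptpn11 0.76 and Akt1 0.68 higher in TFR cells. Cish, a cytokine induced inhibitor that also targets phospholipase C gamma 1, was at 11.33 in control and 10.27 in knockout TFR cells and at 11.29 in control and 11.32 in knockout non-TFR cells. The knockout TFR array thus stood 2.10-fold below the control TFR array, and the other 3 arrays lay close together. Cd226, an activating receptor, was at 10.24, 9.90, 10.13 and 10.56 in the same order and was 1.58-fold lower in TFR cells of the knockout pair.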

How the data were processed

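Total RNA of the sorted cells was hybridized to 4 arrays, 1 per group, and each array was assigned by its title. The authors deposited 1 log2 value per probe and array. A log2 scale was read from their range, 2.23 to 13.8. The submitters' processing notes name MAS5 with no role, and the summarization is not given in the sources used here. Array medians ran from 5.58 to 5.69, so all 41345 probes were quantile normalized with limma 3.58.1 in R 4.3.3, which also removes real differences common to most genes.

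Probes with 1 annotated gene were used (23521, of which 23328 matched RefSeq by Entrez identifier), and the brightest probe over the 4 arrays stood for a gene. Differences are between pairs of arrays, with no test. Members named with all levels were those 1.5-fold apart in any comparison, CD3 chains, Zap70, Lat and Cd4, with others added after their values were seen. Members, role lists and alternatives were chosen with earlier results of these data known. The Blimp-1 core was added after the values were seen. Counting steps were tested on simulated data. Opposite directions were looked for where both differences were at least 0.3 in size, and no member met this.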

Additional observations from a re-analysis of the deposited data

How the results depend on the processing

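Alternatives were the values as deposited, centring on the 75th percentile, cyclic loess, the mean of a gene's probes, stricter limits on dim members, and changed lists. A list median counted as moved from 0.1. No member past 1.5-fold changed sign under any scaling or probe choice. As deposited, the negative regulator median between populations of the control was 0.19 (0.084 after normalization), and Ptpn22, Ubash3b and Nfatc2 were added to the calls there and Ptpn22, Nfatc2 and Themis in the knockout. With centring on the 75th percentile the knockout population medians were -0.12 for members and -0.16 for negative regulators. Without the feedback inhibitors the latter was 0.063, and 1 member in place of 3 was called between genotypes in TFR cells. At a 2-fold limit the calls were 1 and 2 between populations (control and knockout), 1 between genotypes in TFR and 0 in non-TFR cells. Why they moved was not tested, except that the 2-fold limit and the shorter list call fewer by construction. For the number of members with a genotype difference unequal between populations, other settings were added after the data were seen, and it was 3 with centring on the 75th percentile and 4 in the rest. No paired analysis was possible because each group was 1 array. Signal over background cannot be judged, since the deposited table has no detection calls.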
